A study of Mus musculus with 4 samples.

Results

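The genes described here are 56 genes of the G1/S transition and of DNA replication. They were taken from a list of gene symbols, after the Ensembl gene identifiers of the files had been matched to GENCODE M21, and were grouped into 10 roles. All 56 were found among the 25261 identifiers measured. Expression was measured by RNA sequencing of total RNA from mouse adult neural stem cells, which in the brain divide and form new neurons and glia. In the shOGT group (n = 2) the cells had been infected with a lentivirus that expressed a short hairpin RNA against Ogt. In the ctrl group (n = 2) the lentivirus expressed a scrambled hairpin. Both groups came from C57BL/6 mice at 8 weeks of age, so that lentiviral infection and expression of a hairpin were common to all 4 libraries. Ogt encodes O-GlcNAc transferase, which adds single sugars to nuclear and cytoplasmic proteins, and the series title links it to adult neurogenesis and the Notch pathway.

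Levels are given as deposited signal, that is, reads assigned to a gene divided by 1 factor for the library. The implied reads assigned to genes ranged from 15697508 to 17753976 per library. Ogt had 3379 and 3516 in shOGT, against 4112 and 4138 in ctrl. Both shOGT values lay below both ctrl values, and the mean fell by 16.4% in shOGT, a log2 fold change of -0.26 ± 0.04 (± standard error, limma adjusted p = 0.00876). Mitochondrially encoded genes took 3.58% and 3.63% of the signal in shOGT, against 3.45% and 3.39% in ctrl. A gene is called higher or lower here at a limma adjusted p under 0.05. All 15 neural stem cell markers examined were detected, with Sox2 at 5250.1 and 5334 in shOGT, against 5339 and 5429 in ctrl. Microglial markers summed to 8.51 and 9.43 in shOGT, against 5.98 and 8.93 in ctrl, over the 3 of 8 that passed the filter on low values. Endothelial and mural markers summed to 93.6 and 83.0 in shOGT, against 73.8 and 118 in ctrl, over 6 of 8. Mog, which marks mature oligodendrocytes, was at 0 in both shOGT libraries, against 0.997 and 0.992 in ctrl. In the list of oligodendrocyte lineage markers, 2 of 8 tested were called lower and 0 higher. By sign 6 were below 0 and 2 above, with a median log2 fold change of -0.28. The list summed to 60705 and 59729 in shOGT, against 58455 and 59273 in ctrl. Most of that sum came from Olig1 and Olig2, the 2 with a positive sign. Olig1 had 37848 and 37755 in shOGT, against 36350 and 37152 in ctrl. Olig2 had 20158 and 19687 in shOGT, against 19015 and 19105 in ctrl. Pdgfra, the receptor that marks oligodendrocyte progenitors, had 132 and 137 in shOGT, against 287 and 303 in ctrl (-1.13 ± 0.11, limma adjusted p = 0.0013). Gpr17, a receptor of the same lineage, had 131 and 112 in shOGT, against 211 and 237 in ctrl (-0.88 ± 0.13, limma adjusted p = 0.00738). Of 7 astrocyte markers, 3 were called lower and 1 higher, and their summed levels overlapped between the groups. Among them Slc1a2, a glutamate transporter, had 2271 and 2209.6 in shOGT, against 3552 and 3367 in ctrl (-0.63 ± 0.05, limma adjusted p = 0.00053). Glul, glutamine synthetase, had 6662 and 6330.0 in shOGT, against 4786 and 4882 in ctrl (0.43 ± 0.04, limma adjusted p = 0.00114). Of neuroblast and neuron markers, 1 of 9 tested was called, Map2, which was higher. It had 17564 and 17269 in shOGT, against 15469 and 15954 in ctrl. By sign 2 of the 9 were below 0 and 7 above. Dcx, a neuroblast marker, was not called, with 19.1 and 29.2 in shOGT, against 40.9 and 66.5 in ctrl (-1.11 ± 0.32, limma adjusted p = 0.0894). The neural stem cell markers summed to 130341 and 135940.0 in shOGT, against 139524 and 143250.0 in ctrl, with 4 of 15 called lower, and 3 of 13 mitochondrially encoded mRNAs were called higher. Over all genes tested 2.9% were called lower and 1.96% higher, and among those with a mean of at least 100 the shares were 5.6% and 3.62%. The part of these in the results below was not tested.

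Before a cell divides, origins of replication are licensed: ORC, Cdc6 and Cdt1 load the ring-shaped MCM helicase onto DNA during G1. Cyclin E and its kinase release E2F factors from the Rb proteins, and E2F switches on much of the replication machinery. Cdc45 and the GINS complex then turn the loaded MCM ring into an active helicase, after which polymerase alpha with primase lays down primers and polymerases delta and epsilon extend them, held on DNA by the Pcna ring. In the adult brain these genes mark the dividing stem and progenitor cells. The libraries are bulk: fewer cells in S phase and less RNA per cell cannot be told apart.

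Among the 56 genes, the called ones stood in 4 of the 10 roles, 1 in each. In the comparison of shOGT with ctrl, 4 of the 56 genes were called lower and 0 were called higher at a limma adjusted p under 0.05 over all 21829 genes tested. The 4 were Pola1, Fen1, Usp1 and Pcna. The calls made up 7.14% of the 56 genes. The background was 2.9% called lower and 1.96% called higher over all genes tested. Among the 11080 genes with a mean value of at least 100, where 5.6% were called lower and 3.62% higher, the share was nearer to that of the replication genes. By limma's unadjusted p under 0.05, 16 of the 56 (28.6%) were lower and 1 (1.79%) was higher, against 10.3% and 9.02% of all genes tested and 17.2% and 13.5% of genes with a mean of at least 100. All 56 passed the filter on low values, for which any 2 libraries had to reach 1.

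The point estimates leaned the same way without being large. Of the 56 genes, 39 had a log2 fold change below 0 and 17 above 0, so that 69.6% were below 0, against 49.8% of all genes tested and 52.2% of genes with a mean of at least 100. The median log2 fold change was -0.06, with a range of -0.52 for Fen1 to 0.16 for Mcm7, beside a median of 0.0012 over all genes tested. Both shOGT values lay below both ctrl values for 24 genes (42.9%, against 24.3% of all genes tested and 32.1% of those with a mean of at least 100) and above both for 6 (10.7%, against 25% and 27.9%). In the other 26 genes the groups overlapped. The summed signal of the 56 genes was 86508 and 84020 in shOGT, against 87203 and 89578 in ctrl, a difference of -3.54% between the group means. Over all genes tested the sum differed by -1.16%. Both shOGT sums lay below both ctrl sums, but as a share of the total signal the groups overlapped, at 0.518% and 0.502% in shOGT, against 0.517% and 0.528% in ctrl. The median log2 fold change ranged from -0.09 to -0.03 when 1 library was left out, at -0.036 without shOGT 2 and -0.028 without ctrl 2.

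**Figure D1:**
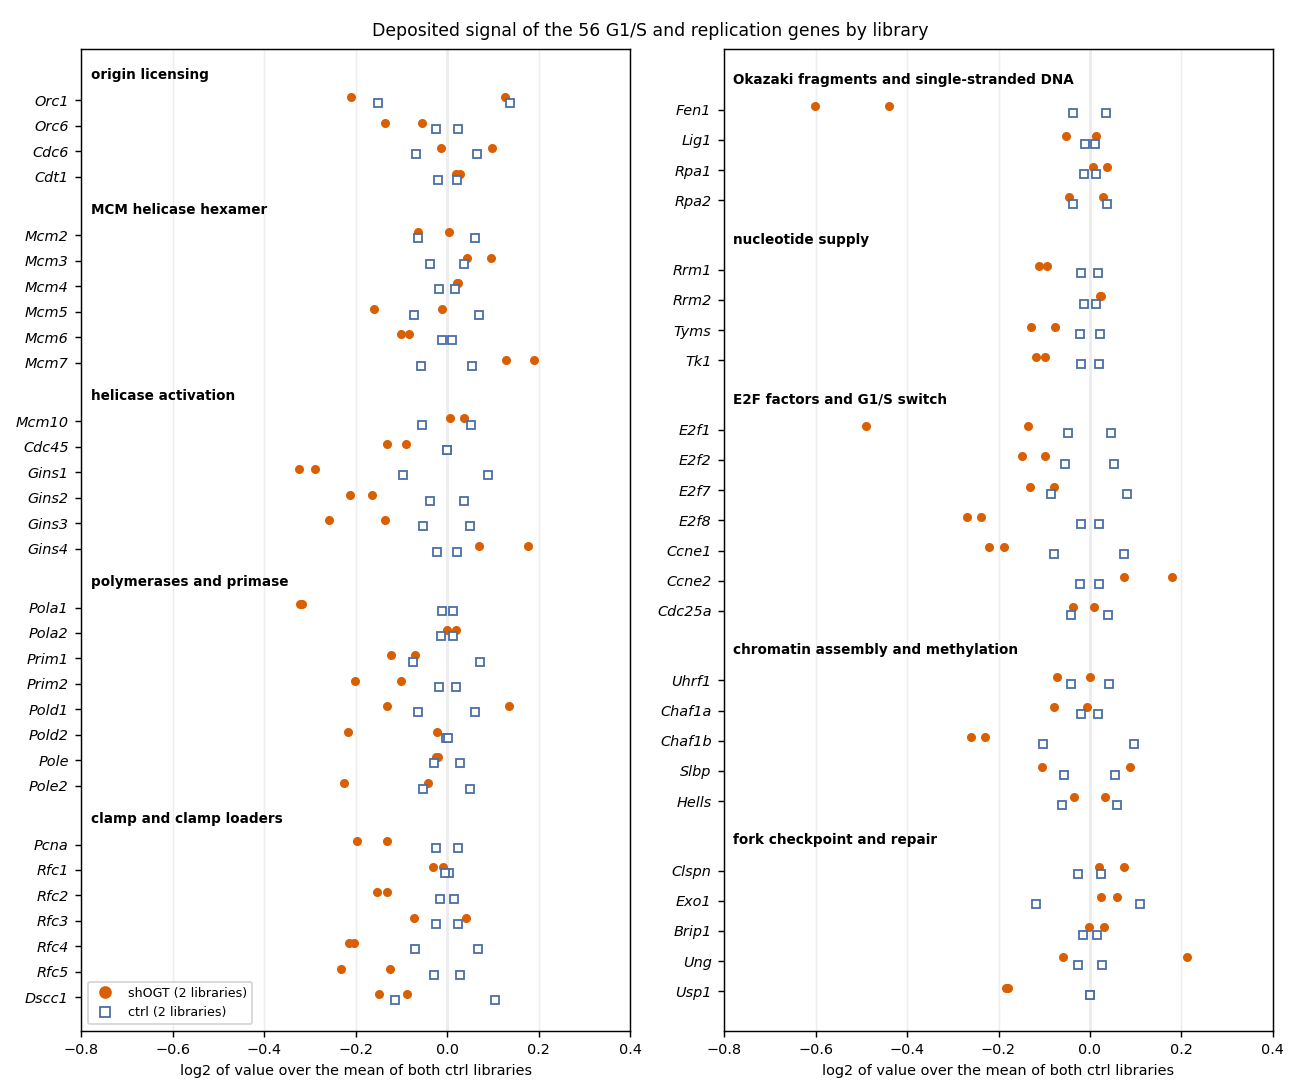
Log2 of the signal of each of the 56 genes in each library over the mean of both ctrl libraries, with 1 row per gene by role, filled circles for the shOGT libraries and open squares for the ctrl libraries. Both circles lie left of both squares in 24 rows, the 4 called genes among them, whereas the MCM rows show no common direction.

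**Figure D2:**
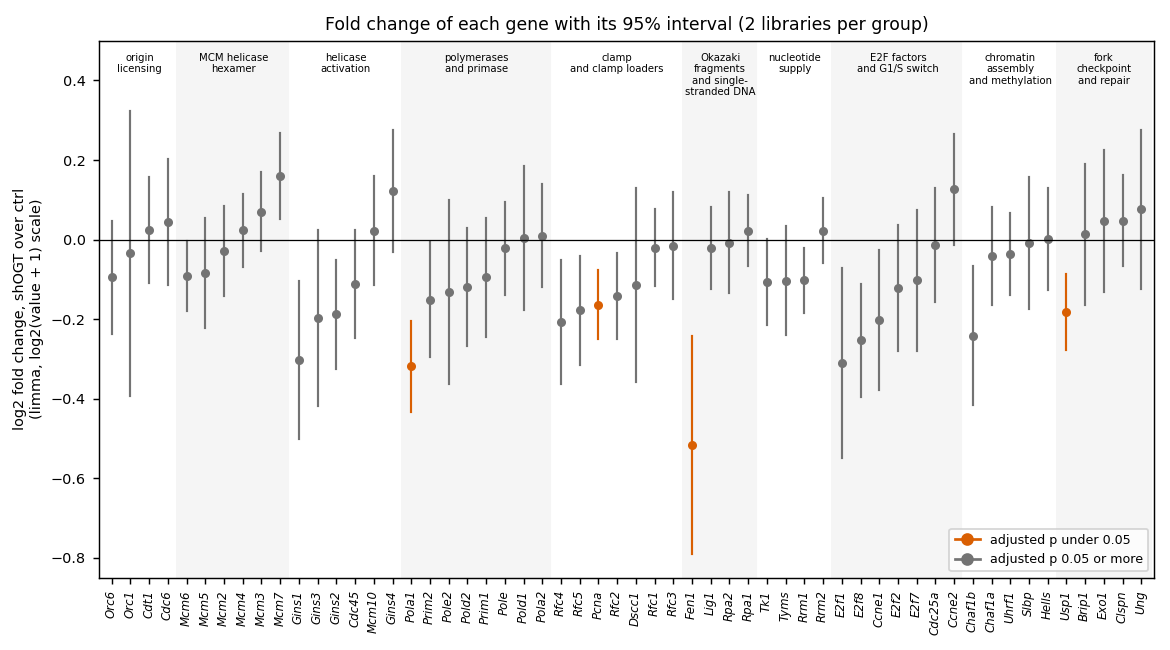
Log2 fold change (shOGT minus ctrl, on the log2(value + 1) scale) of each gene by role, with 95% confidence intervals from limma and called genes marked. The 7 clamp and clamp loader genes all lie below 0, with a median of -0.14, while the MCM genes lie on both sides of 0 with a median of -0.0026.

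Promoter windows of genes on which the results turn are shown here, because 36.5% of the windows of the replication genes held an E2F motif. The windows are 250 bases before to 50 after the annotated start, from RefSeq on GRCm38.p6, the assembly that mm10 names. Windows were found for 45 of the 56 genes, 52 windows in all. The motif letters searched were TTTCCCGC, TTTCGCGC, TTTGCCGC and TTTGGCGC, on both strands, and matches on opposite strands can overlap. They are printed below in capitals within each window, 5′ to 3′ on the strand of the gene. Pola1 was called lower and holds 1 match. Mcm6 and Mcm7 belong to the same hexamer, and their values, given below, differ in sign. Pcna and Fen1 were called lower, and these letters are not in the windows shown for them. Mcm7 and Fen1 each have another window, which is not printed here and holds no match.
Pola1 (chrX:93632106-93632405, minus strand): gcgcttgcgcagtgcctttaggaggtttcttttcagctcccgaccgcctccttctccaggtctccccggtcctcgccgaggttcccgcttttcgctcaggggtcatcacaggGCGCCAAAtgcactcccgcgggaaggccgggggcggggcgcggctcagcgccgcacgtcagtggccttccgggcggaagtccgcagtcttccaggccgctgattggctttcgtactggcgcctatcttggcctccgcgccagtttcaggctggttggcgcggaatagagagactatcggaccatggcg
Mcm6 (chr1:128359656-128359955, minus strand): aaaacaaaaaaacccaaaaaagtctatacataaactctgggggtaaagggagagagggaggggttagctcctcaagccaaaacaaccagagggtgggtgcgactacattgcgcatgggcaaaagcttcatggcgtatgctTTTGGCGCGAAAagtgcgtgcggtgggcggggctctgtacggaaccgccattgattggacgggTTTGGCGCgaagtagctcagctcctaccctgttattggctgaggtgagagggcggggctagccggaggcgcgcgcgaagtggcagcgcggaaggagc
Mcm7 (chr5:138171834-138172133, minus strand): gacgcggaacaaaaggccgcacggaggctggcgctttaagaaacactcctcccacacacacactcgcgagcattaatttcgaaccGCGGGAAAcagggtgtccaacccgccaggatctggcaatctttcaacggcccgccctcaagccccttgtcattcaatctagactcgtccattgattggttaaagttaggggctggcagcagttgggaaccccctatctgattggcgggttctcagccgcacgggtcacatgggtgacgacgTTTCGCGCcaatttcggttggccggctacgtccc
Pcna (chr2:132253131-132253430, minus strand): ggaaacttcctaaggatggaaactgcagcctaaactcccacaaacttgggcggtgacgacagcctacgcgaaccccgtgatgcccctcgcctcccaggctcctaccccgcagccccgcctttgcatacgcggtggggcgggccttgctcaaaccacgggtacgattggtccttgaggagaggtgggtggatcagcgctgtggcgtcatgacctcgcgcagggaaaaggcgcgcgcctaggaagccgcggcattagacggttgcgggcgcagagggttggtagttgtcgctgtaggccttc
Fen1 (chr19:10203872-10204171, minus strand): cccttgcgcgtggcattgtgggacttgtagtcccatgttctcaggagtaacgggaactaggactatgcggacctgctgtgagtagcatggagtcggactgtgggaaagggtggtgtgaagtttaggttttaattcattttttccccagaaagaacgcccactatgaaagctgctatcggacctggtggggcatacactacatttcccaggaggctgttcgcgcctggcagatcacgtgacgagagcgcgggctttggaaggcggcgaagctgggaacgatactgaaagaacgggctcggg

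An E2F match stood in 19 of the 52 windows of the replication genes (36.5%), against 2.26% of 32851 windows of all genes and 4.26% of windows of genes with a mean of at least 100. In Mcm6 the first capital stretch is a pair of matches that overlap on opposite strands. Other pathway genes had a match in 25% of windows, and mitosis genes in 7.89%. The letters CCAAT, bound by NF-Y, stood in 61.5% of windows of the replication genes, against 37.4% of all windows and 84.2% in mitosis genes. The letters TTTGAA, the CHR element of late cell cycle genes, stood in 13.5% of the replication windows, against 17.9% of all windows and 81.6% of the mitosis windows. All of these were counted on both strands. A match is a description of the letters and not of binding. The median G and C content was 60.7% in the replication windows and 52.7% in all windows, and among windows of at least 50% G and C the E2F share was 3.26%.

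**Figure D3:**
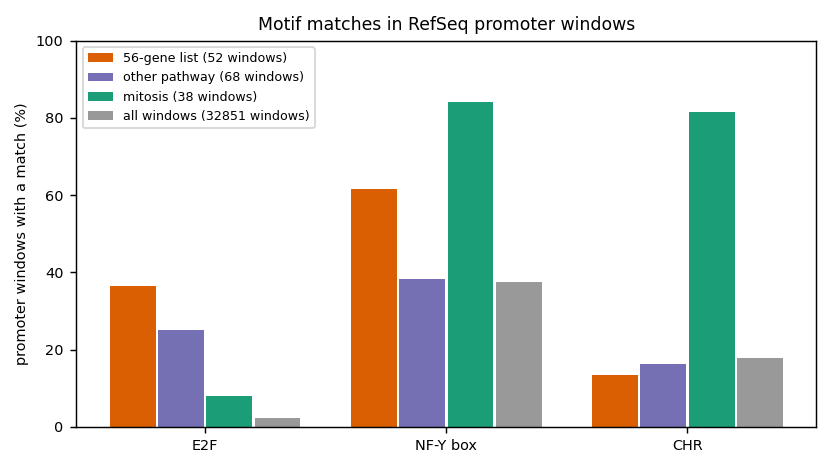
Share of promoter windows (percent) that hold an E2F match, an NF-Y box or a CHR element, for replication genes, other pathway genes, mitosis genes and all windows. The replication genes stand highest for E2F, at 36.5%, and the mitosis genes stand highest for the other motifs.

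Expression changes are set beside the E2F letters here without a test. The 19 genes with a match had a median log2 fold change of -0.02, with Pola1 called. The 26 genes with windows but no match had a median of -0.10, with Pcna and Fen1 called. The 11 genes with no window used here had a median of -0.11, with Usp1 called.

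The listed origin licensing genes and the MCM hexamer, which together build the loaded helicase, held no called gene. The 4 licensing genes had a median of -0.0055, and the sign of that median turned with equal totals (0.011), with quantile normalization (0.0041), without shOGT 1 (0.0031) and without ctrl 2 (0.056). It was -0.053 without shOGT 2 and -0.046 without ctrl 1. Orc6, a subunit of the origin recognition complex, had 704 and 744 in shOGT, against 786 and 759.8 in ctrl, with both shOGT values below both ctrl values (-0.09 ± 0.06, limma adjusted p = 0.464). Cdc6, an MCM loading factor, had 849 and 785 in shOGT, against 757 and 829 in ctrl, and Cdt1, its partner in loading, had 778 and 773 in shOGT, against 774 and 752 in ctrl. Orc1, another subunit of the recognition complex, had the lowest level per exon length of the 56 genes, at 40.8 in shOGT and 41.7 in ctrl (signal per kb of exon, group means). In all 3 of Cdc6, Cdt1 and Orc1 the groups overlapped.

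Within the MCM hexamer the genes differed in sign. Mcm7 had 3821 and 3658 in shOGT, against 3220.2 and 3476 in ctrl, with both shOGT values above both ctrl values (0.16 ± 0.05, limma adjusted p = 0.0992). Mcm6 had 3189 and 3228 in shOGT, against 3392 and 3443 in ctrl, with both shOGT values below (-0.09 ± 0.04, limma adjusted p = 0.245). Mcm3 had 3420.3 and 3296 in shOGT, against 3115 and 3283 in ctrl, a log2 fold change of 0.07 ± 0.04 (limma adjusted p = 0.44). None of the 3 passed the test. Mcm4 was also higher in both shOGT libraries, and in Mcm2 and Mcm5 the groups overlapped. The summed signal of the 6 genes differed by 0.69%, and their median of -0.0026 became positive with equal totals (0.014), with quantile normalization (0.019), without shOGT 2 (0.015) and without ctrl 2 (0.037). It was -0.020 without shOGT 1 and -0.043 without ctrl 1. Per kb of exon, the hexamer genes lay between 519 and 895 in shOGT and between 529 and 862 in ctrl.

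Among the genes that activate the helicase, the GINS subunits differed in sign, and none of the 6 genes passed the test. Their median log2 fold change was -0.15. Gins1 had 358 and 349.7 in shOGT, against 409.9 and 466 in ctrl (-0.30 ± 0.09, limma adjusted p = 0.0884). Gins2 had 801 and 774 in shOGT, against 920.5 and 874 in ctrl (-0.19 ± 0.06, limma adjusted p = 0.122). Gins3 had 238 and 259 in shOGT, against 295 and 275 in ctrl (-0.20 ± 0.10, limma adjusted p = 0.318). In these 3 subunits, and in Cdc45, their partner in the active helicase, both shOGT values lay below both ctrl values. The fourth subunit, Gins4, lay above in both shOGT libraries (0.12 ± 0.07). Mcm10, which helps to activate the loaded helicase, had overlapping groups. Gins2 shares 2758 of its 4097 exon bases with Gse1 on the opposite strand, and the sources used here do not say whether counting used strand.

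Polymerases and primase had 1 called gene of 8. Pola1, the catalytic subunit of polymerase alpha that starts each new strand, lies at chrX:93304767-93632155 on the minus strand (mm10). It had 1092 and 1095 in shOGT, against 1353 and 1376 in ctrl, and its shOGT values lay well below its ctrl values. Its means were 1094 ± 2.46 in shOGT and 1365 ± 16.0 in ctrl (SD, n = 2 each), so that it fell by 19.9%, with a log2 fold change of -0.32 ± 0.05 (limma adjusted p = 0.00978). An SD of 2.46 from 2 values does not show low noise. No exon of Pola1 overlaps another gene. The other subunits of the same complex did not pass the test. Prim2, the large primase subunit, had 682 and 731 in shOGT, against 794 and 774 in ctrl (-0.15 ± 0.06, limma adjusted p = 0.238). Pola2, the accessory subunit, had overlapping groups, as had Prim1, the catalytic primase. Pold2, a subunit of polymerase delta, had 1453 and 1269.8 in shOGT, against 1473 and 1479 in ctrl, lower in both shOGT libraries (-0.12 ± 0.07, limma adjusted p = 0.369). In Pold1, Pole and Pole2 the groups overlapped. The median of the 8 genes was -0.11, and it was -0.031 without shOGT 2 and -0.070 without ctrl 2.

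Among the 56 genes, the clamp and its loaders were the role in which every gene had a negative log2 fold change, 7 of 7. All 7 were also negative with quantile normalization. Rfc3 was at 0.0013 with equal totals and ranged from -0.072 to 0.041 when 1 library was left out. Of 3 other pathway genes in this role, 2 were negative and 1, Chtf18, was positive (0.04 ± 0.08). Pcna, the sliding clamp, lies at chr2:132249162-132253314 on the minus strand and had the highest level per exon length of the 56 genes, at 2657 in shOGT and 2976 in ctrl per kb. It had 6525 and 6229 in shOGT, against 7021 and 7264 in ctrl, with no overlap between the groups. Its means were 6377 ± 209 in shOGT and 7142 ± 172 in ctrl (SD, n = 2 each), so that it fell by 10.7% (-0.16 ± 0.04, limma adjusted p = 0.046). Pcna was the only called gene of the role. Rfc2 had 1459.8 and 1483 in shOGT, against 1608 and 1641 in ctrl (-0.14 ± 0.05, limma adjusted p = 0.136). Rfc4 had 624 and 629.7 in shOGT, against 759 and 690.4 in ctrl (-0.21 ± 0.07, limma adjusted p = 0.136). Both are small subunits of replication factor C, which opens the Pcna ring and closes it around DNA. Rfc1, the large subunit, and Rfc5 were also lower in both shOGT libraries, whereas Rfc3 and Dscc1, the second of which belongs to an alternative loader, had overlapping groups. The median of the 7 genes was -0.14, and their summed signal differed by -8.48% between the group means.

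Of the genes that finish Okazaki fragments or cover single-stranded DNA, Fen1 was called and the other 3 had fold changes near 0. Fen1 is the nuclease that trims the flap of each fragment, and it lies at chr19:10199132-10204169 on the minus strand. It had 146 and 130.1 in shOGT, against 192 and 202 in ctrl, again without overlap. Its means were 138 ± 11.0 in shOGT and 197 ± 6.99 in ctrl (SD, n = 2 each), so that it fell by 30.2% (-0.52 ± 0.12, limma adjusted p = 0.0445). This was the most negative log2 fold change of the 56 genes, at one of the lower levels. The exons of Fen1 share 1909 of 2422 bases (78.8%) with Gm10143, an antisense gene that had 17.0 and 19.8 in shOGT, against 22.9 and 18.8 in ctrl. Reads of that pair cannot be told apart if strand was not used. Tmem258, whose start lies 155 bases away on the other strand, shares a further 130 exon bases with Fen1. It had 910 and 1059 in shOGT, against 984 and 1052 in ctrl, a log2 fold change of -0.05 (limma adjusted p = 0.777). Rpa1, the large subunit of the single-strand binding protein, had 3548 and 3625 in shOGT, against 3565 and 3498 in ctrl. Lig1, the ligase that joins fragments, had 2237 and 2138 in shOGT, against 2235 and 2201 in ctrl. In Rpa1, Lig1 and Rpa2 the groups overlapped. The median of the 4 was -0.01, and it was 0.0026 with equal totals, 0.0032 with quantile normalization and -0.027 without ctrl 1.

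No gene of nucleotide supply was called, and their median was -0.10. Rrm1, the large subunit of ribonucleotide reductase, had 5498 and 5563 in shOGT, against 6016 and 5863 in ctrl (-0.10 ± 0.04, limma adjusted p = 0.153). Tk1, thymidine kinase, had 1524 and 1544 in shOGT, against 1631 and 1674 in ctrl (-0.11 ± 0.05, limma adjusted p = 0.259). Tyms, thymidylate synthase, had 747 and 721 in shOGT, against 777 and 801 in ctrl (-0.10 ± 0.06, limma adjusted p = 0.404). In these 3 both shOGT values lay below both ctrl values. Rrm2, the small reductase subunit, lay slightly above in both shOGT libraries (0.02 ± 0.04), so that both subunits of 1 enzyme had opposite signs.

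The 7 listed genes of the E2F factors and G1/S switch also held no call, although 6 had a negative log2 fold change. Their median was -0.12. That median was -0.069 without ctrl 2 and -0.18 without ctrl 1. E2f8, a repressor of the E2F family, had 618 and 604 in shOGT, against 719 and 738 in ctrl and came nearest to the threshold (-0.25 ± 0.06, limma adjusted p = 0.0533). E2f1, an activator, had 596 and 467 in shOGT, against 633 and 677 in ctrl (-0.31 ± 0.11, limma adjusted p = 0.145). Its shOGT values lay below both ctrl values but differed widely from each other. Ccne1, cyclin E1, had 467 and 456 in shOGT, against 504 and 560.5 in ctrl (-0.20 ± 0.08, limma adjusted p = 0.195). Ccne2, cyclin E2, was the gene with the opposite sign, with both shOGT values above both ctrl values (0.13 ± 0.06). E2f2 was lower in both shOGT libraries, while E2f7, a repressor, and Cdc25a, the phosphatase that activates the cyclin E kinase, had overlapping groups.

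The listed chromatin assembly and methylation genes had a median of -0.04 and no call. That median was -0.078 without shOGT 1, -0.063 without ctrl 1, 0.000064 without shOGT 2 and 0.0057 without ctrl 2. Chaf1b, a subunit of the histone chaperone CAF-1, had 612 and 626 in shOGT, against 683 and 785 in ctrl, lower in both shOGT libraries (-0.24 ± 0.08, limma adjusted p = 0.121). Uhrf1, which guides DNA methylation after replication, had 3476 and 3305 in shOGT, against 3376 and 3578 in ctrl. Chaf1a, the large CAF-1 subunit, had 1172 and 1114 in shOGT, against 1161 and 1191 in ctrl. In Uhrf1 and Chaf1a, as in Hells and Slbp, the groups overlapped.

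In fork checkpoint and repair, 1 of 5 genes was called. Usp1, the enzyme that removes ubiquitin from Pcna and Fancd2, lies at chr4:98923810-98935543 on the plus strand. It had 2116 and 2112 in shOGT, against 2398 and 2397 in ctrl, and the libraries of each group nearly coincided. Its means were 2114 ± 2.96 in shOGT and 2398 ± 1.31 in ctrl (SD, n = 2 each), so that it fell by 11.8% (-0.18 ± 0.04, limma adjusted p = 0.0437). SDs as small as these rest on 2 values each and do not show low noise. Across genes the chi-square per gene was 3.33 between the shOGT libraries and 2.02 between the ctrl libraries, where sampling noise gives 1. Clspn, a mediator of the replication checkpoint, had 1541 and 1483 in shOGT, against 1437 and 1488 in ctrl. Ung, which removes uracil from DNA, had 768 and 635 in shOGT, against 650.2 and 675 in ctrl. In Clspn, Ung, Exo1 and Brip1 the groups overlapped. The median of the 5 was 0.05, and it was -0.0028 without shOGT 1, 0.030 without shOGT 2, 0.023 without ctrl 1 and 0.073 without ctrl 2.

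**Figure D4:**
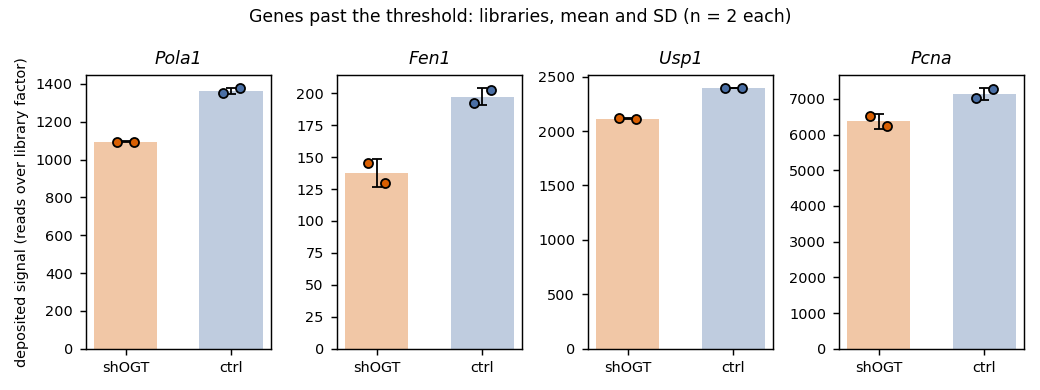
Deposited signal of the 4 called genes in each library, with shOGT left of ctrl. Bars give the group means and error bars the SD (n = 2 each). In each gene both shOGT points lie below both ctrl points, for example Pola1 at 1092 and 1095 in shOGT, against 1353 and 1376 in ctrl.

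The calls depended on the libraries and on the scaling. With any 1 library left out and the same genes tested, none passed, and the lowest limma adjusted p was 0.297, while each log2 fold change stayed negative. With the filter applied again to the libraries left, the calls depended on which library was left out. In none of those fits did all 4 pass. With equal totals Pola1 and Fen1 passed, whereas Usp1 (limma adjusted p = 0.0546) and Pcna (limma adjusted p = 0.0556) did not, and with quantile normalization none did. Nothing in the labels states that libraries of the same group were separate cultures. The p-values therefore measure only the spread between these libraries, which may be technical. An exact two-sided permutation test of 2 against 2 libraries cannot go below 0.333.

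Of 69 other genes of the pathway, 6 were called lower (8.70%) and 0 higher, against 2.9% and 1.96% of all genes tested and 5.6% and 3.62% of genes with a mean of at least 100. Their median was -0.04, and it was -0.026 with equal totals, -0.019 without shOGT 2 and -0.027 without ctrl 2. Gmnn, geminin, which holds Cdt1 inactive, had 567 and 502 in shOGT, against 761 and 740.0 in ctrl (-0.49 ± 0.08, limma adjusted p = 0.00851). Dbf4, the activator of the Cdc7 kinase that fires origins, had 858 and 795 in shOGT, against 1065 and 1085 in ctrl (-0.38 ± 0.06, limma adjusted p = 0.00991). Rpa3, the smallest subunit of the single-strand binding protein, had 523 and 601 in shOGT, against 719 and 749.9 in ctrl (-0.39 ± 0.08, limma adjusted p = 0.0261). The shOGT values of all 3 lay below their ctrl values. Asf1b, a histone chaperone, had 381 and 370.5 in shOGT, against 508 and 468 in ctrl (-0.38 ± 0.08, limma adjusted p = 0.0295). Rnaseh2b, part of the enzyme that removes ribonucleotides, had 653 and 599.5 in shOGT, against 789.8 and 753 in ctrl (-0.30 ± 0.07, limma adjusted p = 0.0403). Ccna2, cyclin A2, had 2906 and 2985 in shOGT, against 3405 and 3398 in ctrl (-0.21 ± 0.04, limma adjusted p = 0.0213). By role, Gmnn stands in origin licensing, Dbf4 in helicase activation, Ccna2 in the G1/S switch and Asf1b in chromatin assembly. In those roles none of the 56 genes was called. Rpa3 and Rnaseh2b stand in the role of Okazaki fragments and single-stranded DNA, beside Fen1. Of genes with a positive sign, Skp2, which marks cell cycle inhibitors for degradation, had 1250.3 and 1091 in shOGT, against 950.4 and 1007 in ctrl (0.26 ± 0.07, limma adjusted p = 0.0804). Zfp367 came next (0.17 ± 0.07, limma adjusted p = 0.21).

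**Figure D5:**
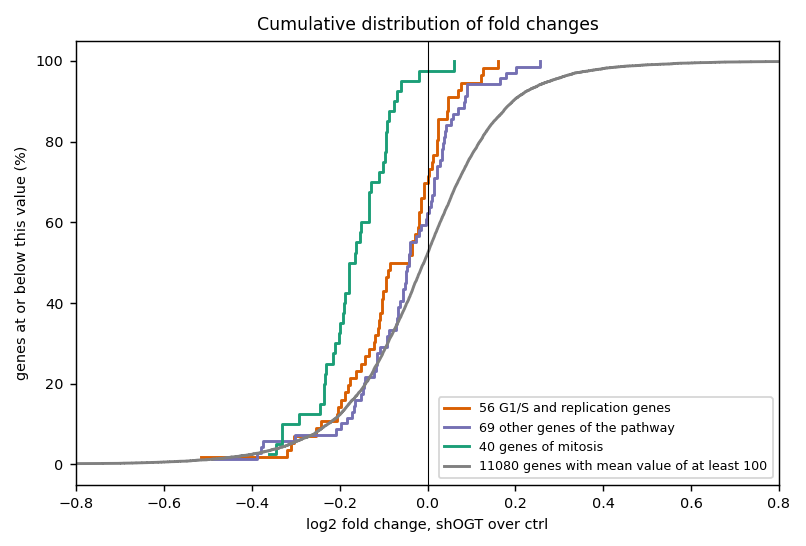
Cumulative share of genes (percent) by log2 fold change, for the 56 replication genes, the other pathway genes, the mitosis genes and the 11080 genes with a mean of at least 100, over the part of the axis shown. The replication curve has its median at -0.06, the mitosis curve at -0.17 and the curve of the 11080 genes at -0.0081.

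Genes of mitosis, the later part of the same cycle, were examined beside them. Of 40, 12 were called lower and 0 higher, 39 had a log2 fold change below 0, and the median was -0.17. Over all genes tested 2.9% were called lower and 49.8% lay below 0, and among genes with a mean of at least 100 the shares were 5.6% and 52.2%. Their summed signal was 98033 and 96161 in shOGT, against 109640 and 108329 in ctrl, a difference of -10.9% between the group means. The difference between the lists was not tested. Replication-dependent histone symbols, 51 of 56 tested, had a median of -0.27 and 0 calls. Their log2 fold changes ranged from -2.10 to 2.40, and they summed to 3290 and 3317 in shOGT, against 3730 and 3660 in ctrl. At limma's unadjusted p under 0.05, 6 were lower and 2 higher. The shares were 10.3% and 9.02% of all genes tested, and 17.2% and 13.5% of genes with a mean of at least 100.

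Gene length and overlap moved with the values. Among genes with a mean of at least 100, the median log2 fold change was -0.04 in the lowest of 4 classes of equal size by exon bases and 0.02 in the highest. The replication genes in the same classes had medians of -0.16 (n = 11) and -0.02 (n = 10). The Spearman correlation of log2 fold change with exon bases was 0.23 across the 56 genes and 0.13 across the 11080 genes. With mean signal in place of exon bases it was 0.33 across the 56 genes and -0.03 across the 11080 genes. All of these came from the same 4 libraries. The 20 genes whose exons overlap another gene had a median of -0.10 with 1 call, and the other 36 had a median of -0.02 with 3 calls. The shared part was 78.8% of the exon bases in Fen1, 67.3% in Gins2 and 52.5% in Chaf1a, and at most 17.4% in the rest. A protein-coding gene on the opposite strand started close to 10 of the 56 genes, at 87 to 659 bases from their starts. Of those partners Vps35, beside Orc6, was called lower, with 3067 and 3173 in shOGT, against 3668 and 3558 in ctrl (-0.21 ± 0.04, limma adjusted p = 0.0225). Vps35 also shares 171 exon bases with Orc6. Genes that overlap members differed in sign. Wsb2, which shares 499 exon bases with Rfc5, had a log2 fold change of -0.37, and Eif4a2, which shares 194 with Rfc4, had 0.18. The part of length, of level and of overlap in the results was not tested.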

How the data were processed

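RNA sequencing of total RNA from mouse adult neural stem cells gave 4 libraries, 2 shOGT and 2 ctrl, grouped by the labels' titles. The authors deposited 1 signal value per gene, and genome build mm10 is named per the submitters' processing notes. Which aligner, counting tool, strand setting and normalization were used is not given in the sources used here. Within each library every deposited value was a whole multiple of 1 step (1.06 and 0.943 in shOGT, 0.997 and 0.992 in ctrl, 100% within 0.01 of a step), which gave the implied reads. Count models were not run on them, and the signal was used as deposited. Symbols, positions and exons came from GENCODE M21, which matched 25250 of 25261 identifiers. A chi-square per gene was 3.33 between the shOGT libraries and 2.02 between the ctrl libraries, where sampling noise gives 1. No pair agreed within that noise, so no libraries were merged, which does not show that they came from separate cultures.

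The test was limma 3.58.1 in R 4.3.3 with a variance trend on log2(value + 1), for genes that reached 1 in 2 or more libraries. It was two-sided, with Benjamini-Hochberg adjustment over all 21829 genes, and a gene was called at an adjusted p under 0.05. Fold changes are on the log2(value + 1) scale, where changes of low genes come out too small. The script was tested on simulated data. Alternatives were pseudocounts of 0.5 and 5, no filter, a mean value of at least 10, equal totals, quantile normalization, no variance trend, a replicate block and leaving out each library. The members and lists were chosen with earlier results of these data known. Values by library are given for Ogt, for called genes and for the 3 genes with the smallest unadjusted p in each role. Of the other pathway genes, those called and the 2 with the smallest p in each direction are named. Listed cell type markers without a value were not analysed here.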

Additional observations from a re-analysis of the deposited data

How the results depend on the processing

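Over all genes, 1060 were called (633 lower, 427 higher); equal totals gave 1178 (585 lower, 593 higher), a mean value of at least 10 gave 1991 and the replicate block 2302. Without a filter, with quantile normalization or without the variance trend, limma called 0 (unadjusted p under 0.05 in 4302, 3998 and 2763 genes). The 4 calls among the 56 genes became 9 (8 lower, 1 higher) with a mean value of at least 10 and 9 with the replicate block. They became 2 with equal totals (Pola1 and Fen1). They became 0 without a filter (17 at an unadjusted p under 0.05), with quantile normalization (14) and without the variance trend (3). Pseudocounts of 0.5 and 5 gave 3 and 5. The 6 calls among other pathway genes became 10 with a mean value of at least 10 and 10 with the block, and 0 under the same 3 settings, with 16, 16 and 6 at an unadjusted p under 0.05. Leaving out 1 library gave 0 to 1220 calls over all genes, 0 to 6 among the 56 and 0 to 7 among the other pathway genes. With the genes tested held fixed it gave 0 each time, with 7 to 9 of the 56 at an unadjusted p under 0.05. With the filter applied again to the 3 libraries left, chosen after seeing the data, it gave calls only without ctrl 1 or ctrl 2. Without ctrl 2 the calls among the 56 went in both directions. The lone sample is then assumed to vary like the other group. The median over the 56 ranged from -0.087 to -0.028. The cause of these moves was not tested. No label states that the replicate numbers pair the samples. Deviations of same-numbered samples correlated at 0.007 over all tested genes. That value cannot show whether same-numbered samples shared a culture or a day. Tests on recovered reads were not run. With equal totals the sign turned for Rfc3 (0.0013), Rpa2 (0.0087), Cdc25a (0.0029) and Slbp (0.0090), and with quantile normalization for Rpa2 (0.0071), Cdc25a (0.0023) and Slbp (0.0065). Leaving out 1 library turned the sign of 17 genes near 0, whose log2 fold changes then ranged from -0.20 to 0.13 for Orc1, from -0.022 to 0.11 for Cdc6, from -0.090 to 0.033 for Mcm2, from -0.031 to 0.076 for Mcm10, from -0.0027 to 0.023 for Pola2, from -0.13 to 0.14 for Pold1, from -0.051 to 0.0072 for Pole, from -0.072 to 0.041 for Rfc3, from -0.053 to 0.012 for Lig1, from -0.045 to 0.029 for Rpa2, from -0.054 to 0.026 for Cdc25a, from -0.078 to 0.0057 for Uhrf1, from -0.10 to 0.089 for Slbp, from -0.059 to 0.060 for Hells, from -0.067 to 0.16 for Exo1, from -0.0028 to 0.030 for Brip1, from -0.060 to 0.21 for Ung. The other 39 genes kept their direction, 30 lower and 9 higher.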
